A study of Mus musculus with 16 samples.

Results

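Globin and erythroid transcripts were followed in whole trigeminal ganglia of the mouse. The set holds 9 genes chosen by name among 25719 gene identifiers: the embryonic globins Hbb-y, Hbb-bh1 and Hba-x, the adult globins Hbb-bs, Hbb-bt, Hba-a1 and Hba-a2, and the red cell genes Alas2 and Slc4a1. All 9 passed the low-count filter, which kept 15109 genes; the 3 embryonic ones passed it through their E14 levels. The ganglia came from wild-type (WT) mice and from mice without Nogo-A (KO), a protein made from the gene Rtn4. They were dissected at embryonic day 14 (E14) or postnatal day 25 (P25), giving the groups E14 WT, E14 KO, P25 WT and P25 KO. Each group had 4 libraries of polyadenylated RNA, each from 1 ganglion, and the design compares the genotypes within each stage and the stages within each genotype. The sources used here name neither the allele that removes Nogo-A nor the strain of the mice.

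Hemoglobin carries oxygen in red cells and is built from a pair of alpha-like and a pair of beta-like globin chains, each holding a heme group. In the mouse the first, primitive red cells arise in the yolk sac and use the embryonic chains: Hba-x encodes the zeta chain, Hbb-y the epsilon-y chain and Hbb-bh1 the beta-h1 chain. Definitive red cells arise later in the fetal liver and then in the bone marrow, and use the adult chains of Hba-a1, Hba-a2, Hbb-bs and Hbb-bt. Alas2 is the erythroid form of the enzyme that begins heme synthesis, and Slc4a1 is band 3, the anion exchanger of the red cell membrane. A ganglion taken with its vessels carries some of these cells, and some neurons and glia are also known to hold adult globin transcripts. In such bulk RNA, fewer red cells and less RNA per red cell cannot be told apart.

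The beta-like genes lie together on chromosome 7 and the alpha-like genes together on chromosome 11. On GRCm38, with positions from GENCODE, Hbb-y spans chr7:103851749-103853216, Hbb-bh1 chr7:103841637-103843164, Hbb-bs chr7:103826534-103828096 and Hbb-bt chr7:103812524-103813996, all on the minus strand. Hba-x spans chr11:32276400-32278116, Hba-a1 chr11:32283511-32284465 and Hba-a2 chr11:32296489-32297298, all on the plus strand. Slc4a1 lies further along chromosome 11 at chr11:102348824-102366203 on the minus strand, and Alas2 lies on the X chromosome at chrX:150547375-150570638 on the plus strand. The adult genes of each cluster are close copies of each other. Of the 31-base stretches of the Hbb-bs transcript, 66.9% occur in Hbb-bt, and of those of Hba-a2, 91.0% occur in Hba-a1. No 31-base stretch is shared between an embryonic and an adult globin, so the counting can divide reads between adult copies with less certainty than between embryonic and adult genes.

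Promoters are shown because genes of both clusters changed together between the stages. RefSeq start sites on GRCm38.p6 were found for 7 of the 9 genes. The 150 bases upstream of the start are printed 5′ to 3′ on the gene's strand. Capitals mark matches on either strand to 4 motifs. The first is the CACCC box, bound by factors such as Klf1, searched as CCACCC or in its longer spelling CACACCC. The second is CCAAT, a common promoter word. The third is the GATA motif of Gata1, searched as AGATAA, or with another first letter as TGATAA, or with another last letter as AGATAG, or with both of these changes as TGATAG. The fourth is the TATA box, searched as ATAAAA or, shifted by a letter, as TATAAA. The windows, in the order printed, are chr7:103853208-103853357 (minus strand), chr11:32276450-32276599 (plus), chr7:103827929-103828078 (minus), chr7:103813924-103814073 (minus), chr11:32283522-32283671 (plus) and chrX:150547267-150547416 (plus). They overlap the GENCODE gene spans, which begin upstream of the RefSeq starts.
Hbb-y: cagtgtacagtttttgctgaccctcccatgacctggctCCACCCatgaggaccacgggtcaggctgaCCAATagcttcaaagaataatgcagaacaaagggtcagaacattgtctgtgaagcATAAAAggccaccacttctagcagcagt
Hba-x: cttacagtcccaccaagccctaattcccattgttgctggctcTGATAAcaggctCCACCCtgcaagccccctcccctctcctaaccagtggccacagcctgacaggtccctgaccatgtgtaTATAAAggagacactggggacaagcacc
Hbb-bs: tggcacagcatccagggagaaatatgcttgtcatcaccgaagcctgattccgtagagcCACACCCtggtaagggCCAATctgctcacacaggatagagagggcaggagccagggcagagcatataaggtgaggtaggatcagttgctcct
Hbb-bt: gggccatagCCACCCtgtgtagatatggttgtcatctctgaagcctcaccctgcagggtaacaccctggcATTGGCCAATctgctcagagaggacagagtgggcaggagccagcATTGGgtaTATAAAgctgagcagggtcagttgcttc
Hba-a1: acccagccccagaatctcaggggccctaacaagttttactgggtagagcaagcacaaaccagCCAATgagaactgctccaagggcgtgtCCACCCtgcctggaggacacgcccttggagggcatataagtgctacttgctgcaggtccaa
Alas2: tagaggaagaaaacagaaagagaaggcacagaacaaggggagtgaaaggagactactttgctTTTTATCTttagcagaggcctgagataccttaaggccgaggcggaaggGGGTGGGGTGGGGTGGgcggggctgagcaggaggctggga

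A CACCC word stood in all 7 windows, against 23.2% of the 32851 promoters of the same length. CCAAT stood in 5 of the 7, namely the adult globins and Hbb-y, against 24.5% of promoters. A GATA word stood in 2, Hba-x at -108 to -103 and Alas2 at -86 to -81, against 15.997%. A TATA word stood in 4, Hbb-y, Hba-x, Hbb-bt and Alas2, against 14.1%. The search took only the spellings given, and tataag, which stands in the Hbb-bs, Hba-a1 and Hba-a2 windows, was not among them. In Alas2 the TATA word, at -88 to -83, lies on the strand opposite the gene, as does the GATA word that it overlaps. On that strand 3 overlapping copies of CCACCC also lie, at -40 to -25. In Hbb-bt 2 of 3 CCAAT matches abut each other on opposite strands. Hba-a2 is not printed because its window shares an unbroken run of 147 bases with that of Hba-a1. The longest run shared by Hbb-bs and Hbb-bt was 14 bases.

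Library totals ran from 15532373 to 29562379 counts. The deposited values are estimated counts, given here as CPM, the usual rate of counts relative to the TMM-scaled library total. Neuron markers of the ganglion summed to between 12812 and 20192 CPM in every library and glial markers to between 856 and 27131 CPM, and none of either list of 8 was at 0 in any group. The gene total of Rtn4 adds the transcripts of its shorter proteins, so it does not check the KO label. For Rtn4 in KO against WT edgeR gave -0.27 on the log2 scale at E14 (SE 0.26, adjusted p = 0.943) and -0.41 at P25 (SE 0.26, adjusted p = 1). At E14, WT replicates 2 and 4 carry one ganglion number with R and L, as do KO replicates 1 and 3, so these may be the right and left ganglia of an animal, although the series text speaks of 4 animals for each group. The p-values measure the spread between these samples.

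The embryonic globins were measured in every E14 library and, but for 1 count, in no P25 library. Hbb-y read 325, 391, 242 and 443 CPM in the E14 WT libraries and 399, 203, 395 and 317 CPM in the E14 KO libraries. At P25 it had no count in any WT library and 1 count, 0.0431 CPM, in KO replicate 2. The E14 groups overlapped each other and lay far above P25. With 27865 counts at E14 against none at P25, Hbb-y was at least 12089-fold lower at P25 in WT, taking a floor of 3 counts over the group. In KO, 24086 counts against 1 gave a ratio of 30213, with an exact 95% counting interval of 5422 to 1193380. Such intervals and floors describe counting error alone.

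Hba-x, the alpha-like partner of these chains, read 67.5, 106, 53.8 and 39.9 CPM in the E14 WT libraries and 41.4, 58.6, 119.9 and 69.8 CPM in those of E14 KO. It had no count in any of the 8 P25 libraries. WT replicate 2 and KO replicate 3 were the highest of their groups, and both groups spanned about the same range. The P25 level was at least 2200-fold lower in WT and at least 2274-fold lower in KO.

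Hbb-bh1, which leads in the earliest primitive cells before Hbb-y takes over, was the lowest of the 7 globins of the set at E14. It read 2.84, 2.56, 0.796 and 4.16 CPM in the E14 WT libraries and 3.29, 1.96, 3.32 and 3.19 CPM in those of E14 KO, from 14 to 95 counts a library. It made up 0.328% to 0.996% of the embryonic beta-like counts. No P25 library held a count, which places P25 at least 92.4-fold lower in WT and at least 91.2-fold lower in KO. These bounds are smaller than those of Hbb-y and Hba-x because the E14 counts are lower.

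The adult globins were present at both stages. Hbb-bs read 369.6, 262, 194 and 355 CPM in the E14 WT libraries and 313, 239.7, 293 and 449 CPM in those of E14 KO. At P25 it read 49.7, 48.5, 27.7 and 61.9 CPM in the WT libraries and 43.8, 59.4, 66.3 and 58.6 CPM in those of KO. Every E14 library lay above every P25 library, and the genotypes overlapped at both stages. Hbb-bs fell by 2.65 on the log2 scale in WT (SE 0.26, edgeR adjusted p = 3.77e-08) and by 2.51 in KO (SE 0.26, adjusted p = 7.87e-08).

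Its neighbour Hbb-bt read 186, 185, 88.7 and 162 CPM in the E14 WT libraries and 172, 116, 159.8 and 201 CPM in those of E14 KO. At P25 it read 7.36, 10.1, 5.27 and 10.1 CPM in the WT libraries and 8.23, 10.0, 13.4 and 9.76 CPM in those of KO. The stages were again fully separate, and the genotypes overlapped at both. Hbb-bt fell by 4.24 in WT (SE 0.28, edgeR adjusted p = 1.14e-10) and fell by 3.97 in KO (SE 0.28, adjusted p = 2.62e-10).

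Hba-a1 read 367, 329, 179.8 and 224 CPM in WT at E14 and, in KO at E14, 117, 233, 305 and 353 CPM. At P25 it read 16.1, 10.5, 10.1 and 27.9 CPM in the WT libraries and 19.4, 27.4, 28.3 and 25.4 CPM in those of KO. E14 KO replicate 1 was the lowest E14 library, yet the stages did not overlap. Hba-a1 fell by 4.09 in WT (SE 0.37, edgeR adjusted p = 1.08e-08) and by 3.32 in KO (SE 0.35, adjusted p = 1.20e-07).

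Hba-a2, which encodes the same kind of chain, read 180.0, 155, 82.9 and 101 CPM in the E14 WT libraries and 69.7, 110.3, 135 and 172 CPM in those of E14 KO. At P25 it read 9.86, 10.9, 7.21 and 18.5 CPM in the WT libraries and 12.1, 15.6, 16.3 and 16.9 CPM in those of KO. Within each E14 group its libraries ranked in the same order as for Hba-a1. Hba-a2 fell by 3.48 in WT (SE 0.32, edgeR adjusted p = 1.51e-08) and by 3.00 in KO (SE 0.31, adjusted p = 9.13e-08).

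The red cell genes outside the globin clusters moved the same way. Alas2 read 37.0, 39.0, 17.7 and 20.5 CPM in the E14 WT libraries and 10.99, 21.8, 26.8 and 33.9 CPM in those of E14 KO. At P25 it read 3.26, 1.85, 2.87 and 3.09 CPM in the WT libraries and 4.12, 3.66, 4.29 and 3.09 CPM in those of KO. All E14 libraries lay above all P25 libraries. It fell by 3.36 in WT (SE 0.33, edgeR adjusted p = 4.02e-08) and by 2.63 in KO (SE 0.32, adjusted p = 7.95e-07). Alas2 overlaps Apex2 on the opposite strand, and the sources used here do not say whether reads were counted by strand.

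Slc4a1 read 8.94, 14.1, 6.59 and 6.44 CPM in the E14 WT libraries and 2.97, 14.1, 7.51 and 9.47 CPM in those of E14 KO. At P25 only 4 to 18 counts a library remained, or 0.523, 0.169, 0.430 and 0.232 CPM in the WT libraries and 0.247, 0.431, 0.821 and 0.198 CPM in those of KO. The stages did not overlap, although KO replicate 1 was well below the other E14 libraries. Slc4a1 fell by 4.70 in WT (SE 0.51, edgeR adjusted p = 1.48e-07) and by 4.34 in KO (SE 0.50, adjusted p = 3.68e-07).

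**Figure D1:**
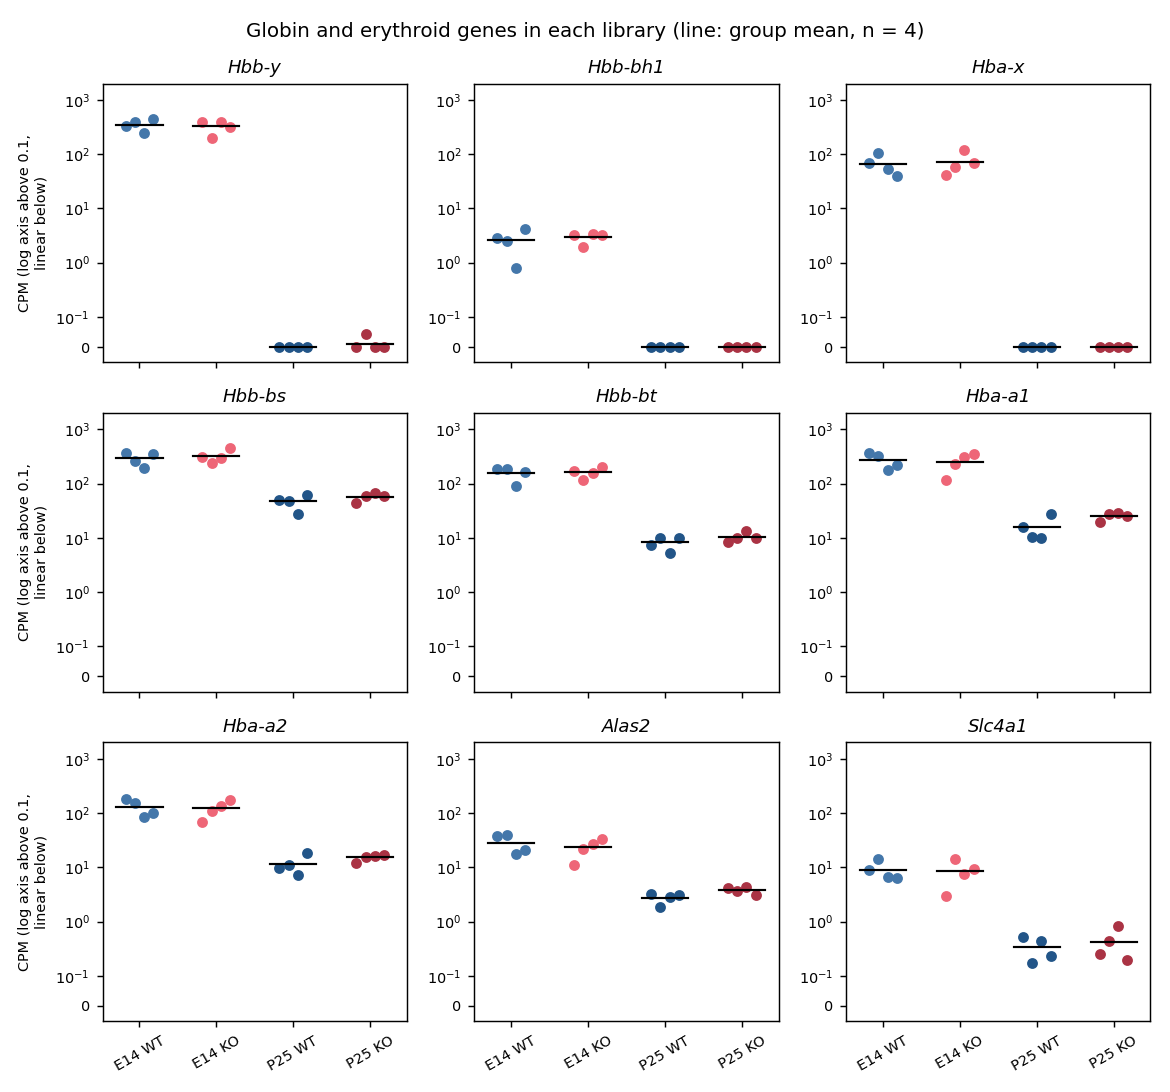
CPM of each of the 9 genes in each library (log axis above 0.1, linear below), with 4 points per group and a line at the group mean. The 3 embryonic globins sit at or beside 0 at P25, where Hbb-y has 1 count in 1 KO library, and the other 6 genes are lower at P25 in every library.

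Thus the 4 adult globins, Alas2 and Slc4a1 were called lower at P25, 6 of 6 in WT and 6 of 6 in KO, at an edgeR adjusted p under 0.05, where 29.8% and 29.2% of the 15109 genes tested were called lower and 59.6% and 59.8% in either direction. The 3 embryonic globins are left out of this count, because they passed the low-count filter only through the stage where they are high. The median log2 difference over all tested genes was 0.00 in WT and 0.01 in KO. The stages did not overlap for any of the 6, as for 50.2% of all genes in WT and 59.8% in KO. The same 6 were called lower under every alternative tried.

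Levels per kilobase of transcript allow the genes to be compared with each other. At E14 in WT the order of mean CPM per kilobase was Hbb-y at 553 ± 137 (SD, n = 4), Hbb-bs at 470.3 ± 131, Hba-a1 at 393 ± 126, Hba-a2 at 234 ± 81.9, Hbb-bt at 221 ± 65.2, Hba-x at 83.4 ± 35.5, Alas2 at 14.0 ± 5.39, Hbb-bh1 at 4.22 ± 2.26 and Slc4a1 at 1.99 ± 0.792. The first 3 overlapped over their libraries, as did Hba-a2 and Hbb-bt. In E14 KO Hbb-y at 518 ± 145 and Hbb-bs at 516 ± 142 stood side by side. At P25 Hbb-bs led alone, at 74.7 ± 22.6 CPM per kilobase in WT and 90.8 ± 15.1 in KO, with Hba-a1 next in WT at 23.1 ± 11.9 and in KO at 36.0 ± 5.72.

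The switch between embryonic and adult chains is clearest as a share within each family. Embryonic genes made up 37.1%, 46.8%, 46.2% and 46.4% of beta-like counts in E14 WT and 45.3%, 36.5%, 46.8% and 33.0% in E14 KO. The group values were 44.1% ± 4.70 and 40.4% ± 6.69 (SD, n = 4). At P25 the share was 0 of 5592 counts in WT, which allows up to 0.0536%, and 1 of 6347 counts in KO, or 0.0158% with an exact Clopper-Pearson 95% interval of 0.000399% to 0.0878%. The stage difference had a two-sided exact permutation p of 0.0286 in WT and in KO, the smallest that 4 against 4 can give, and 0.0416 after Benjamini-Hochberg adjustment over 16 stage tests. With embryonic counts of 0 or 1 at P25 this outcome was already given, so the p-value adds no support to the counts.

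Hba-x took a smaller share of its family than the embryonic genes did of theirs. It made up 10.98%, 17.97%, 17.0% and 10.9% of alpha-like counts in E14 WT and 18.2%, 14.6%, 21.4% and 11.7% in E14 KO. In every E14 library this was below the embryonic share of beta-like counts. At P25 there were 0 of 2837 alpha-like counts in WT and 0 of 3811 in KO. The floor of 3 counts allows up to 0.106% and 0.0787%. The exact permutation p was again 0.0286 in each genotype (adjusted 0.0416), an outcome again given by the P25 counts of 0. Dividing the counts by transcript length left the E14 shares at 44.8% ± 4.74 and 41.1% ± 6.79 (SD, n = 4) of beta-like and at 11.8% ± 3.23 and 13.7% ± 3.62 of alpha-like globins.

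**Figure D2:**
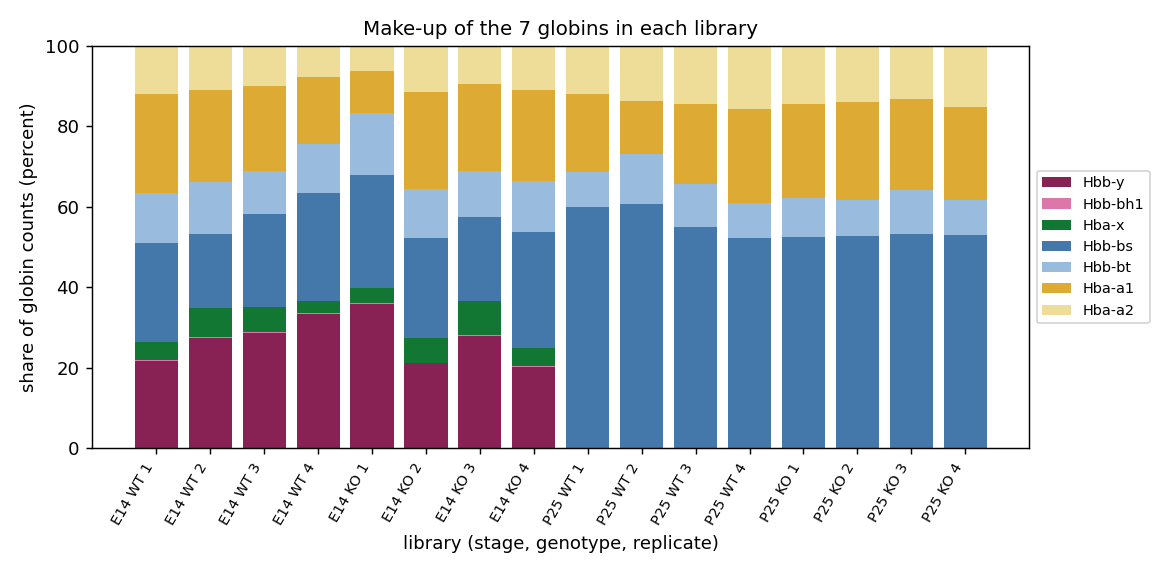
Share of the 7 globins in the globin counts of each library, in percent, stacked by gene. Hbb-y and Hba-x fill part of every E14 bar and, apart from the 1 Hbb-y count in P25 KO replicate 2, none of the P25 bars, where Hbb-bs takes the largest part.

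The adult beta genes did not keep their proportion. This measure was chosen after its values were seen, so it has no test. Hbb-bt made up 33.5%, 41.4%, 31.3% and 31.3% of the adult beta counts in E14 WT and 35.4%, 32.6%, 35.3% and 30.9% in E14 KO. At P25 it made up 12.9%, 17.2%, 16.01% and 14.0% in WT and 15.8%, 14.5%, 16.8% and 14.3% in KO. All 8 E14 libraries lay above all 8 P25 libraries. For the adult alpha genes the order was the other way: Hba-a2 held 30.7% to 37.4% of their counts at E14 and 36.3% to 50.9% at P25, with an overlap between E14 KO replicate 1 and the lowest P25 libraries. Since each pair shares much of its transcript sequence, these shares rest on how the counting divided common reads.

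**Figure D3:**
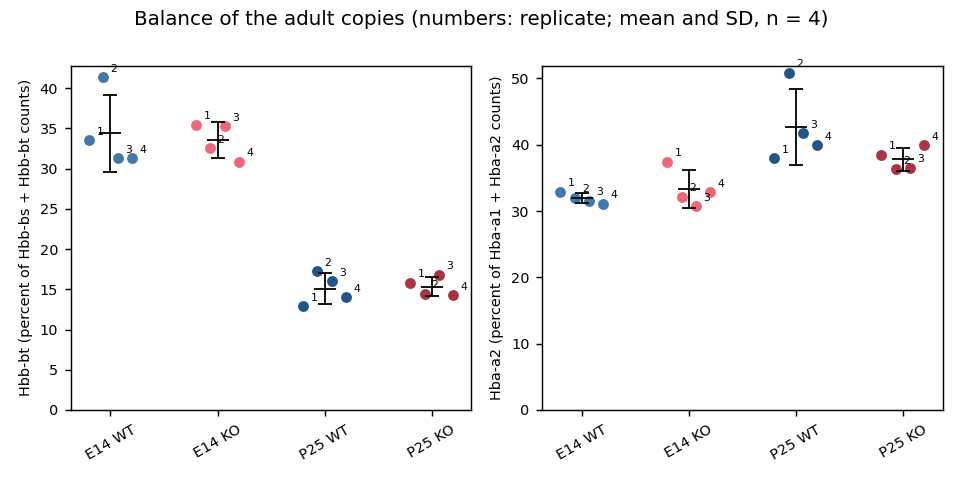
Share of Hbb-bt in the adult beta counts and of Hba-a2 in the adult alpha counts, in percent, by library, with mean and SD (n = 4). The Hbb-bt share is 30.9% to 41.4% at E14 and 12.9% to 17.2% at P25.

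The 7 globins were also summed. They read 1498, 1430.2, 842 and 1329 CPM in WT at E14 and, in KO at E14, 1114, 961, 1411 and 1565 CPM, or 0.0901% to 0.158% of the library totals. At P25 they read 83.0, 80.1, 50.2 and 118 CPM in the WT libraries and 83.6, 113, 124 and 111 CPM in those of KO, or 0.00474% to 0.0119%. The globin sum at P25 was therefore nearly all adult. Its stage difference had an exact permutation p of 0.0286 in each genotype (adjusted 0.0416), and so did that of the adult globins alone. The adult globins went from 856 ± 233 to 82.9 ± 27.9 CPM in WT and from 859 ± 233 to 107.8 ± 17.2 CPM in KO (SD, n = 4). The adjusted p of 0.0416 leans on the embryonic tests in the same family, whose outcome was already given. By itself it does not place these sums past the threshold.

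Alas2 was set against the summed globins, embryonic ones included. Per 1000 globin counts it stood at 9.87, 22.7, 19.0 and 21.7 in E14 KO and at 49.2, 32.5, 34.5 and 28.0 in P25 KO, with no overlap (exact permutation p = 0.0286, adjusted 0.0416). In WT it stood at 24.7, 27.2, 21.05 and 15.5 at E14 and at 39.3, 23.1, 57.1 and 26.1 at P25, where the stages overlapped (exact permutation p = 0.143, adjusted 0.190). The KO adjusted p was 0.0831 without E14 KO replicate 1, without E14 KO replicate 3 or with same-numbered ganglia summed. The KO adjusted p of 0.0416 also leans on the embryonic tests counted in the same family. Against single adult globins the order differed: Alas2 was 6.37-fold lower at P25 in KO, between Hbb-bs at 5.74-fold and Hba-a2 at 8.19-fold. Slc4a1 per 1000 globin counts stood at 7.13 ± 2.21 and 7.19 ± 5.22 at E14 in WT and KO and at 4.73 ± 3.26 and 3.79 ± 2.05 at P25 (SD, n = 4). Its stage difference had exact permutation p-values of 0.286 in WT and 0.314 in KO.

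The balance of alpha-like to beta-like transcripts varied between E14 libraries of a group. Alpha-like genes held 41.0%, 41.3%, 37.6% and 27.5% of globin counts in E14 WT and 20.4%, 41.8%, 39.7% and 38.0% in E14 KO. At P25 they held 31.3%, 26.8%, 34.4% and 39.2% in WT and 37.8%, 38.3%, 35.9% and 38.3% in KO. WT replicate 4 and KO replicate 1 stood below the rest of E14. Neither the stages (exact permutation p = 0.371 in WT and 0.943 in KO) nor the genotypes (0.714 at E14 and 0.143 at P25) differed past the threshold.

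Each low library has a partner of the same ganglion number. WT replicate 4, at 27.5% alpha-like, has WT replicate 2 at 41.3%, and KO replicate 1, at 20.4%, has KO replicate 3 at 39.7%. In both low libraries Alas2 per 1000 globin counts was also below the partner, at 15.5 against 27.2 and at 9.87 against 19.0, and so was Slc4a1, at 4.84 against 9.89 and at 2.66 against 5.32. The embryonic share of beta-like counts hardly differed within these pairs, at 46.4% and 46.8% in WT and at 45.3% and 46.8% in KO. That of alpha-like counts differed more, at 10.9% in WT replicate 4 and 17.97% in its partner. In KO it was 18.2% in replicate 1 and 21.4% in replicate 3.

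Base composition was measured beside this. The alpha-like transcripts have a GC content of 55.7% to 57.2% and the beta-like ones of 46.8% to 51.3%. In KO replicate 1, genes in the alpha-like GC range deviated from the E14 mean by 0.04 (log2) more than genes in the beta-like range, and in KO replicate 3 by -0.01. In WT replicate 4 the same difference was -0.27 and in WT replicate 2 it was 0.66, the widest of the 16 libraries. KO replicate 2, at -0.26, had 41.8% alpha-like counts. The part of base composition in the alpha-like share was not tested.

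**Figure D4:**
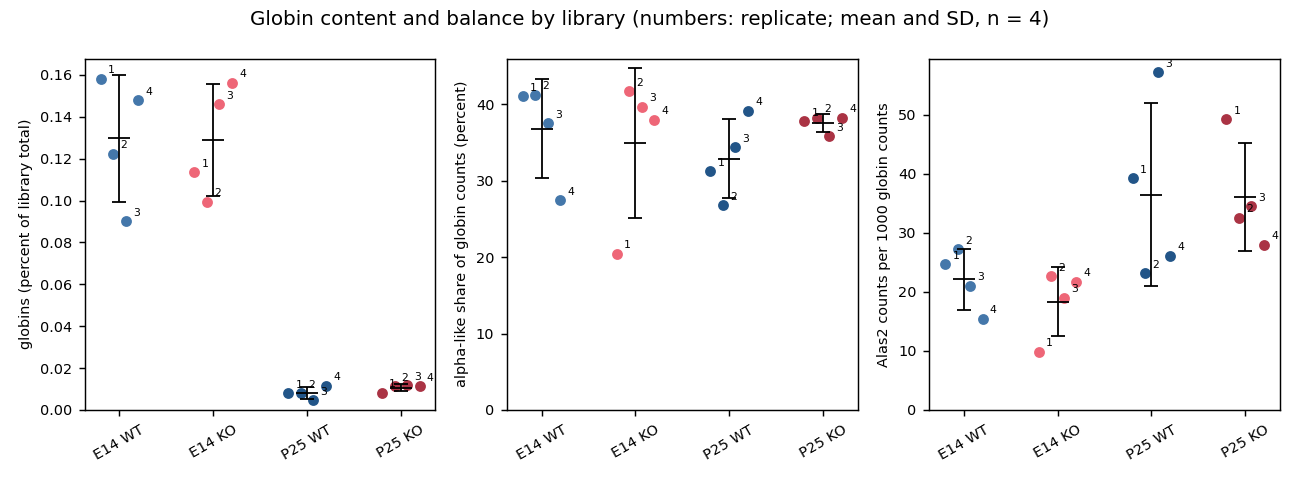
Globins as percent of the library total, alpha-like share of globin counts in percent, and Alas2 counts per 1000 globin counts, by library, with replicate numbers, mean and SD (n = 4). E14 KO replicate 1 is lowest at 20.4% alpha-like and 9.87 Alas2 counts per 1000 globin counts.

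Between genotypes, none of the 9 genes was called at E14, where 0.0199% of all genes tested (3 of 15109) were called by edgeR. None of the 6 other than the embryonic globins was called at P25, where 0.0463% (7 of 15109) were called, 0.0265% lower and 0.0199% higher. The embryonic globins, with 1 count in all at P25, could not show a genotype difference there. The genotypes overlapped for all 9 genes at E14 and for the 6 at P25, while 1.63% and 3.32% of all genes did not overlap. None of the genes so compared had an unadjusted p under 0.05 in the main edgeR fit or in DESeq2. At P25, 1 member had one in edgeR with the compared libraries alone, with same-numbered ganglia summed or without the low-count filter. The same held without E14 KO replicate 1, and no member was called in any of these. At E14 the log2 fold changes of KO against WT ran from -0.29 for Alas2 (SE 0.30) to 0.17 for Hbb-bh1 (SE 0.44), with edgeR adjusted p-values of 0.943 and 0.979. The globin sum was 1275 ± 297 CPM over the WT libraries and 1263 ± 275 CPM over those of KO (SD, n = 4, exact permutation p = 0.971, adjusted 1 over 13 genotype tests).

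At P25 the 6 members other than the embryonic globins had higher means in KO, yet none passed the threshold. Slc4a1 turned to -0.23 (log2) without P25 KO replicate 3. The largest difference was in Hba-a1, at a log2 fold change of 0.64 (SE 0.33, unadjusted p = 0.0677, edgeR adjusted p = 1), and the smallest in Hbb-bs, at 0.28 (SE 0.25, adjusted p = 1). The globin sum was 82.9 ± 27.9 CPM over the WT libraries and 107.8 ± 17.2 CPM over those of KO (SD, n = 4, exact permutation p = 0.229, adjusted 0.836), and WT replicate 4 lay among the KO libraries. Without that library Hba-a1 stood at 1.04 (unadjusted p = 0.00438) and Hba-a2 at 0.71 (unadjusted p = 0.0262), with edgeR adjusted p-values of 1. The genes were measured in the same libraries, so their differences are not independent of each other.

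Vessel markers were measured beside this P25 difference. All 12 endothelial genes were higher in P25 KO on average, with a median log2 fold change of 0.27 against -0.02 for all genes tested, and none was called. Robo4, a receptor of endothelial cells, differed most, at 4.19 ± 0.891 CPM over the WT libraries and 6.68 ± 1.62 CPM over those of KO (SD, n = 4, edgeR adjusted p = 1). The 12 genes summed to 137 to 177 CPM in WT and 144 to 243 CPM in KO. Their part in the globin difference was not tested.

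The stage by genotype interaction was called for none of the 6 genes with counts at both stages and for none of the 15109 genes tested (0%). The embryonic globins, at or beside 0 at P25 in both genotypes, could not show one. Over all genes, 647 had an unadjusted p under 0.05 in edgeR and 8 were called by DESeq2, none of them among the 6. The lowest interaction p-values were those of Alas2 (0.74, SE 0.44, unadjusted p = 0.107) and Hba-a1 (0.77, SE 0.46, unadjusted p = 0.113), each with an edgeR adjusted p of 0.993. Without P25 WT replicate 4 the value of Hba-a1 was 1.17 (unadjusted p = 0.0130), and without E14 KO replicate 4 that of Alas2 was 0.94 (unadjusted p = 0.0433), both with an edgeR adjusted p of 1.00. Without E14 KO replicate 1 they were 0.53 and 0.50.

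The other globins of the mouse genome were examined beside these. Of 7 measured, 5 were tested, and 4 rose at P25 in WT and in KO, where 29.7% and 30.6% of all genes were called higher. Hbq1b and Adgb are counted among those that rose, but passed the low-count filter only through P25, so their p-values are left out. Cygb, cytoglobin of fibroblasts and related cells, rose by 3.11 (SE 0.19, edgeR adjusted p = 3.52e-11) in WT, from 12.01 ± 3.49 to 103 ± 13.6 CPM, and by 3.26 (SE 0.19, adjusted p = 2.08e-11) in KO. Ngb, neuroglobin of neurons, rose by 2.10 in WT (SE 0.33, adjusted p = 1.51e-05) and by 1.79 in KO (SE 0.33, adjusted p = 9.24e-05). Cygb overlaps Prcd on the opposite strand.

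Hbq1b, a theta globin gene of the alpha cluster, went from 0.250 ± 0.264 to 3.31 ± 1.06 CPM in WT and from 0.226 ± 0.267 to 3.08 ± 0.280 CPM in KO (SD, n = 4). Adgb, androglobin, went from 0.174 ± 0.248 to 1.15 ± 0.253 CPM in WT and from 0.324 ± 0.146 to 2.25 ± 0.184 CPM in KO. Mb, myoglobin of muscle, had at most 16 counts in a library and was not called, at 1.65 (SE 1.22, edgeR adjusted p = 0.254) in WT and 2.07 (SE 1.10, adjusted p = 0.110) in KO. Hbq1a, with at most 9 counts, and Hbb-bh2, with 1 count in all, were not tested.

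Genes known from red cell development were measured as lists. Over all genes tested, 29.8% fell and 29.7% rose in WT, and 29.2% fell and 30.6% rose in KO, and each list's counts are to be read against these shares. Gata1 and Klf1, the factors that define erythroid cells, had at most 18 and 13 counts in any E14 library, and Gata1 had none in P25 WT and at most 2 in P25 KO. Of 12 tested regulators, 5 fell and 3 rose in WT, and 5 fell and 2 rose in KO, near the shares over all genes. Bcl11a, a repressor of embryonic globin genes that neurons also express, fell by 3.80 in WT (SE 0.28, edgeR adjusted p = 6.35e-10) and by 3.81 in KO (SE 0.28, adjusted p = 6.49e-10). Zbtb7a, another such repressor, rose by 2.66 in WT (SE 0.23, adjusted p = 5.16e-09) and by 2.92 in KO (SE 0.23, adjusted p = 1.58e-09). Ldb1, a bridging cofactor of erythroid factors, fell by 1.47 in WT (SE 0.21, adjusted p = 5.25e-06) and fell by 1.202 in KO (SE 0.21, adjusted p = 5.04e-05).

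Of 14 tested genes of the red cell membrane, 5 fell and 7 rose in WT, and 4 fell and 8 rose in KO, against 29.8% and 29.7% of all genes in WT and 29.2% and 30.6% in KO. Kel, the Kell antigen, went from 0.682 ± 0.527 CPM to no count in WT (SD, n = 4). Kel is counted among those that fell, but passed the low-count filter only through E14, so its p-value is left out. Among the genes that rose, Tmod1, a capping protein of actin, went from 2.31 ± 0.271 to 118 ± 2.04 CPM in WT, and Aqp1, a water channel, from 43.8 ± 10.7 to 270.2 ± 29.4 CPM. Kel, Gata1 and Klf1 were named after their values were seen.

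Among 14 tested genes of late red cell development, 6 fell and 5 rose in each genotype, with a median of -0.19 in WT and -0.23 in KO. Over all genes 29.8% fell and 29.7% rose in WT, and 29.2% and 30.6% in KO. Car2, a carbonic anhydrase, rose by 3.65 in WT (SE 0.18, edgeR adjusted p = 1.94e-12) and by 3.31 in KO (SE 0.18, adjusted p = 6.04e-12), and Prdx2, a peroxidase, fell by 1.19 in WT (SE 0.22, adjusted p = 0.000104) and fell by 1.62 in KO (SE 0.22, adjusted p = 3.23e-06). Hemgn, Alox15 and Cldn13 had at most 6 counts in a library and were not tested.

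Of the 8 enzymes of heme synthesis that cells in general use, 4 rose and 2 fell in WT, and 3 rose and 1 fell in KO, against 29.7% higher and 29.8% lower over all genes in WT and 30.6% and 29.2% in KO. Urod, which acts midway in the pathway, rose by 1.04 in WT (SE 0.17, edgeR adjusted p = 3.53e-05) and by 0.70 in KO (SE 0.17, adjusted p = 0.00159). Fech, which inserts iron into heme, rose by 0.77 in WT (SE 0.14, adjusted p = 0.000104) and by 0.73 in KO (SE 0.14, adjusted p = 0.000172). Alas1, the form of the first enzyme outside red cells, stood at 55.9 ± 9.81 CPM in E14 WT and 71.6 ± 6.09 CPM in P25 WT (SD, n = 4, adjusted p = 0.0426), and at 63.3 ± 2.37 and 60.3 ± 4.05 CPM in KO (adjusted p = 0.697).

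Of 12 genes of iron supply, 3 rose and 2 fell in WT, and 5 rose and 2 fell in KO, against the same shares over all genes. Steap3, an iron reductase, rose by 2.88 in WT (SE 0.20, edgeR adjusted p = 2.39e-10) and by 3.17 in KO (SE 0.20, adjusted p = 7.41e-11). The ferritin chains went apart: in WT and KO, Fth1 rose by 2.48 and 2.01 (edgeR adjusted p = 3.24e-10 and 5.68e-09) and Ftl1 fell by 1.197 and fell by 1.235 (adjusted p = 0.000138 and 0.000101).

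Of 9 tested genes of heme and hemoglobin clearance, 5 rose and 0 fell in WT, with a median of 0.73, and 4 rose and 1 fell in KO, with a median of 0.38. Over all genes 29.7% rose and 29.8% fell in WT, and 30.6% and 29.2% in KO. Cd163, the hemoglobin receptor of macrophages, had no count at E14 and stood at 3.26 ± 0.554 CPM in P25 WT and 4.97 ± 3.24 CPM in P25 KO (SD, n = 4). Cd163 is counted among those that rose, but passed the low-count filter only through P25, so its p-values are left out. Blvrb, a biliverdin reductase, rose by 1.48 in WT (SE 0.27, adjusted p = 8.14e-05) and by 1.51 in KO (SE 0.27, adjusted p = 6.12e-05).

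**Figure D5:**
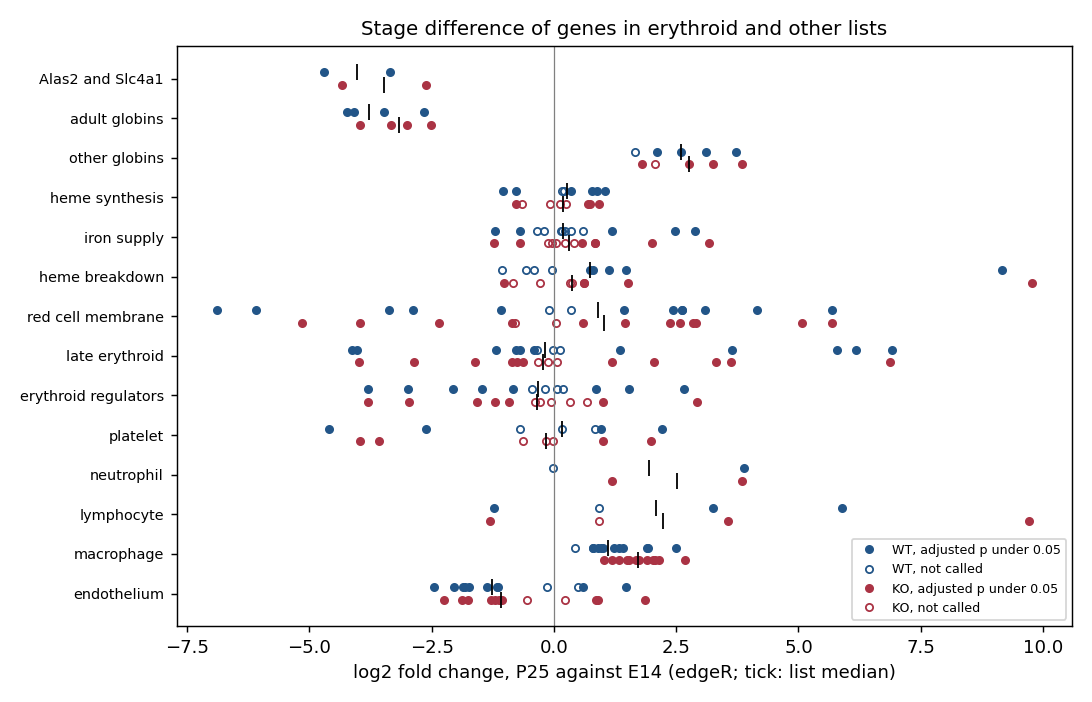
Log2 fold change of P25 against E14 for each tested gene of the lists, WT in blue and KO in red, filled where the edgeR adjusted p is under 0.05, with a tick at the list median. Adult globins, Alas2 and Slc4a1 lie between -4.70 and -2.51, and the other globins lie above 0.

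Other blood cells were present at low levels. Neutrophil genes summed to 0.905 to 2.01 CPM at E14 and 2.51 to 7.53 CPM at P25 over 12 genes, of which 2 were tested. Of 4 tested lymphocyte genes, 2 rose and 1 fell in each genotype. Over all genes 29.7% rose and 29.8% fell in WT, and 30.6% and 29.2% in KO. Ighm, the heavy chain of IgM, went from 2.88 ± 0.896 to 27.7 ± 5.89 CPM in WT and from 2.10 ± 0.769 to 24.9 ± 4.50 CPM in KO (SD, n = 4, edgeR adjusted p = 4.30e-09 and 1.73e-09). Platelet genes without Gp1bb, which overlaps another gene on its strand, summed to 3.17 to 11.3 CPM at E14 and 8.07 to 15.7 CPM at P25. Of 7 tested platelet genes, Gp1bb included, 2 rose and 2 fell in each genotype, against the same shares over all genes. Ppbp and Treml1, which fell, passed the low-count filter only through E14. Pf4, a platelet chemokine that some macrophages also make, rose by 2.20 in WT (SE 0.43, edgeR adjusted p = 0.000174) and by 1.99 in KO (SE 0.44, adjusted p = 0.000583).

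Tissue cells that handle or line the blood changed in different directions. Their counts are set against all genes, of which 29.7% rose and 29.8% fell in WT, and 30.6% and 29.2% in KO. Of 12 macrophage genes, 10 rose in WT and 12 in KO, and their sum went from 65.1 to 135 CPM over the E14 libraries to 231 to 317 CPM over the P25 libraries. Of 12 endothelial genes, 8 fell and 2 rose in WT, and 7 fell and 3 rose in KO, with sums of 283 to 379 CPM at E14 and 137 to 243 CPM at P25. Pecam1, an adhesion protein of endothelium, fell by 2.05 in WT (SE 0.20, edgeR adjusted p = 3.61e-08) and fell by 1.75 in KO (SE 0.20, adjusted p = 2.89e-07). The endothelial median was -1.26 in WT and -1.09 in KO, against -3.79 and -3.16 for the adult globins. The part of vessel content in the globin difference was not tested.

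Between genotypes, edgeR called none of the 127 tested genes of these lists at E14, P25 or in the interaction, where 0.0199%, 0.0463% and 0% of all genes were called. An unadjusted p under 0.05 in edgeR was reached by 9.45% of the 127 at E14, 3.94% at P25 and 7.09% in the interaction, against 4.86%, 1.87% and 4.28% of all genes. DESeq2 also called 0 of the 127. The 12 macrophage genes had a median of -0.65 at E14, against -0.04 over all genes tested.

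Genes outside the set were ranked by how much they varied like the globins within groups. Over all 16 libraries, as deviations from the group means of log2(CPM + 0.5), the summed adult globins had their highest Pearson correlations among 12924 genes with Emp3 (0.953), Babam2 (0.944), Chchd4 (0.934), Phf5a (0.929) and Mad2l1bp (0.923). Their own members reached 0.913 (Hba-a2), 0.906 (Hbb-bs), 0.851 (Hbb-bt) and 0.850 (Hba-a1), Alas2 reached 0.563 and Slc4a1 0.243. Over the 8 E14 libraries the summed embryonic globins were most like Magohb (0.964), Ndufaf7 (0.953), Slc22a6 (0.953), Chdh (0.950) and Mesd (0.949). These are the extremes of many genes over few libraries that share depth and scaling, and are given as a description.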

How the data were processed

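RNA of 16 single trigeminal ganglia was measured, 4 for each stage and genotype. The libraries were stranded and selected for mRNA, per the labels' protocols. The authors deposited estimated counts per gene, given as whole numbers. GRCm39 and the tools kallisto 0.46, fastp 0.20.0 and DESeq2 1.32.0 are listed per the submitters' processing notes. For the annotation and the strand setting: not given in the sources used here.

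Counts were scaled by TMM and tested with edgeR 4.0.16 (quasi-likelihood F test, all 16 libraries in 1 fit, filterByExpr, Benjamini-Hochberg over 15109 genes, threshold 0.05) in R 4.3.3. Sums, on log2(CPM + 0.5), and shares were compared by two-sided exact permutation tests. Positions and transcript lengths came from GENCODE on GRCm38 and promoters from RefSeq on GRCm38.p6. No coordinates were converted. Scripts were tested on simulated data.

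All 9 members and all other globins are named, and from each list up to 3 genes a comparison with the lowest p at a mean of at least 1 CPM, apart from the genes stated as chosen otherwise. Hemgn, Alox15 and Cldn13 are named as untested. The members and lists were chosen with earlier results of these data known. Alternatives were DESeq2 1.42.0, other scalings and filters, summed copies, summed ganglia, a replicate block, fewer libraries and, chosen after seeing the data, counts per transcript length.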

Additional observations from a re-analysis of the deposited data

Results flagged for a closer look

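A single library stood apart from the other 3 of its group in 2 of the 68 groups of values examined, by a gap test that chance passes in about 1 of 20 groups. Hbb-bh1 stood at 1.96 CPM, from 42 counts, in E14 KO replicate 2, while the other E14 KO libraries held 3.19 to 3.32 CPM. The embryonic share of beta-like counts was 37.1% in E14 WT replicate 1, while the other E14 WT libraries held 46.2% to 46.8%.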

How the results depend on the processing

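The 4 adult globins, Alas2 and Slc4a1 were called lower at P25 in both genotypes, and none of them was called between genotypes or in the interaction, under every alternative run. The embryonic globins were likewise not called between genotypes at E14, and could not be at P25 or in the interaction. The stage calls of the globin sums (all, adult and embryonic), of both embryonic shares and of Alas2 per 1000 globin counts in KO were lost in the replicate block. That of Alas2 was also lost (adjusted p = 0.0831) without E14 KO replicate 1, without E14 KO replicate 3 and with same-numbered ganglia summed. No called value reversed. The stage calls of the embryonic sum and shares were already given by their P25 counts. The adjusted p-values of the other sums and of Alas2 count those tests in the same family and lean on them. In the block, the exact sign-flip test over 4 pairs cannot give a p below 0.125 (adjusted 0.182). With the replicate block the stage difference of the globin sum stood at -3.96 (log2) in WT and -3.53 in KO, and that of the embryonic share of beta-like counts at -44.1 and -40.4 percentage points. Same-numbered libraries correlated at -0.392 to 0.216, not above 0.1 in all pairs of any comparison, and 4 of 16 correlated best with their own number, so they share only a number. With the block, edgeR called 2 genes between genotypes at E14, 3 at P25, and 8679 and 8744 between stages in WT and KO.

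Over all genes, the calls ran from 1 to 5 at E14, from 3 to 18 at P25 and from 0 to 8 for the interaction. DESeq2 gave the highest of each, equalled at E14 by leaving out E14 WT replicate 2. Leaving out P25 KO replicate 4 gave 14 calls at P25 and 7 for the interaction, and summing same-numbered ganglia gave 11 at P25. Depth limits Hbb-bh1, Slc4a1 at P25 and the embryonic shares at P25, which rest on few counts.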
